A study of Mus musculus with 9 samples.

Results

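The genes described here encode the cyclins, kinases and inhibitors that act in the G1 phase of the cell cycle, followed in the RNA bound by RIG-I. They are the D-type cyclins Ccnd1 (ENSMUSG00000070348), Ccnd2 (ENSMUSG00000000184) and Ccnd3 (ENSMUSG00000034165), the E-type cyclins Ccne1 (ENSMUSG00000002068) and Ccne2 (ENSMUSG00000028212), the kinases Cdk2 (ENSMUSG00000025358), Cdk4 (ENSMUSG00000006728) and Cdk6 (ENSMUSG00000040274), and the inhibitors Cdkn1b (ENSMUSG00000003031) and Cdkn2a (ENSMUSG00000044303). These 10 of the 22396 genes in the deposited count table were picked by symbol with their CPM (counts per 1000000 counts of the library) by group in view. Their differences between groups are therefore a description, with no test. All 10 were found, 9 had counts, and the same 9 passed the filter on low counts. Cdkn2a had no count in any library.

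A cell in G1 decides whether to copy its DNA. Growth signals raise the D-type cyclins, which bind CDK4 or CDK6 and begin to phosphorylate the retinoblastoma protein, and cyclin E with CDK2 completes that step and frees the E2F transcription factors to switch on S phase genes. The protein of Cdkn1b (p27) holds cyclin E with CDK2, the INK4 product of Cdkn2a holds CDK4 and CDK6, and its ARF product stabilises p53. In melanoma, loss of CDKN2A and gain of cyclin D or CDK4 activity are familiar lesions.

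The cells were B16F10, a line grown from a mouse melanoma, and every group stably expressed FLAG-tagged RIG-I, a sensor of foreign-looking RNA. Lentiviral vectors brought in a control shRNA (shCtr) or an shRNA against OSGEP (shOSGEP#1 or shOSGEP#2). OSGEP is the catalytic subunit of KEOPS, the complex that places the t6A modification beside the anticodon of tRNAs reading codons of the form ANN. RNA pulled down with the FLAG tag was sequenced (FLAG-RIG-I RIP-seq) in 3 libraries per group, 9 in all, which a figure legend of the study gives as independent experiments. The question is which RNA sits on RIG-I when OSGEP is reduced, and both shRNAs are compared with the same 3 shCtr libraries, so their differences from shCtr are not independent of each other. RNA of the whole lysate was not part of these counts. A CPM value is a fraction of what came down with RIG-I, so fewer cells with a transcript, less of it per cell and less of it held by RIG-I cannot be told apart.

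The shRNA sequences are shown because they define the groups and hit Osgep at different sites. The middle 21 bases of each listed oligo, in capitals, match the Osgep transcript of 3388 bases on its sense strand. The site of shOSGEP#1 lies at bases 1257 to 1277, after the end of the coding sequence at base 1123, and is present in 4 of the 8 annotated Osgep transcripts. The site of shOSGEP#2 lies at bases 611 to 631 inside the coding sequence and is present in 7 of the 8. The longest run that either shared with any transcript of the 10 G1 genes, on either strand, was 9 bases.
shOSGEP#1: CCAACATGACGCCACAATAAA
shOSGEP#2: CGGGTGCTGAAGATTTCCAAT

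The targeted gene Osgep (ENSMUSG00000006289) stood at 19.1, 19.9 and 15.5 CPM in shCtr replicates 1 to 3. It was at 3.76, 1.15 and 1.53 CPM in the shOSGEP#1 libraries. In shOSGEP#2 it was at 0.0786 CPM in replicate 1 and 2.88 CPM in replicate 3, and had 0 counts in replicate 2. All shOSGEP libraries were thus below all shCtr libraries. The log2 fold change against shCtr was -3.10 ± 0.73 (SE) for shOSGEP#1, with an edgeR adjusted p of 0.0128, and -3.84 ± 0.93 for shOSGEP#2, with an edgeR adjusted p of 0.0150. Both p-values missed the threshold of 0.01 used here, which is the one the study's methods name. Without a filter on low counts both passed (-3.10 and -3.84), and shOSGEP#1 also passed with only the 2 groups compared or without either deep shOSGEP#2 library (-3.11 each). The shOSGEP#2 value passed with DESeq2 (-3.72). It was -2.78 without shOSGEP#2 replicate 1, and -7.86, past the threshold, without replicate 3, when it rested on the 2 counts of replicate 1.

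A pair of libraries stood apart. The shOSGEP#2 replicate 2 held 568995 counts against 14914731 to 50224299 in the other 8, with 4196 genes detected against 11733 to 13958. Its median Spearman correlation with the other libraries, across genes, was 0.568, while the others reached at least 0.947 among themselves. Of the 2385 genes at 100 CPM or more in both other shOSGEP#2 libraries, 623 (26.1%) had no count in it. It was left out of the fits and is given apart. The shOSGEP#1 replicate 3 had 2.96% of its counts from mitochondrial genes, where the other 7 deep libraries had 0.147% to 0.445%, and it was the lowest shOSGEP#1 library for 6 of the 9 detected G1 genes. Log2 fold changes of the G1 genes, and sums and ratios over them, are therefore given for shOSGEP#1 with and without it. The limit that 3 counts allow for a gene with none was 0.0597 to 0.201 CPM in the 8 deep libraries and 5.27 CPM in shOSGEP#2 replicate 2.

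Among the G1 genes, the level per kilobase of annotated transcript ran over a wide range in shCtr. Ccnd2 was first at 467 ± 35.9 CPM per kb (SD, n = 3), followed by Cdk2 at 247 ± 76.5 and Ccnd3 at 232 ± 37.0, and the last 2 of these overlapped within their spread. Cdk4 at 147 ± 25.9 and Ccnd1 at 146 ± 10.6 CPM per kb were also not separable. Cdkn1b followed at 52.3 ± 2.33 and Ccne1 at 27.4 ± 3.30. The lowest detected levels, again within their spread, were Cdk6 at 5.92 ± 1.17 and Ccne2 at 5.24 ± 2.03 CPM per kb. By CPM without division by length, Ccnd2 was number 8 of the 12744 genes tested in shCtr. The order differed between groups at Cdk2 and Ccnd1. In shOSGEP#1 the mean of Cdk2 was 114 CPM per kb, next to Ccnd1 at 115, and without shOSGEP#1 replicate 3 it was 124, with Ccnd1 at 139.9 and Cdk4 at 138. In the deep shOSGEP#2 libraries Cdk2 was at 62.4, next to Cdkn1b at 63.1. Ccnd1, level with Cdk4 in shCtr, was at 193 against 119 for Cdk4 in the deep shOSGEP#2 libraries.

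**Figure D1:**
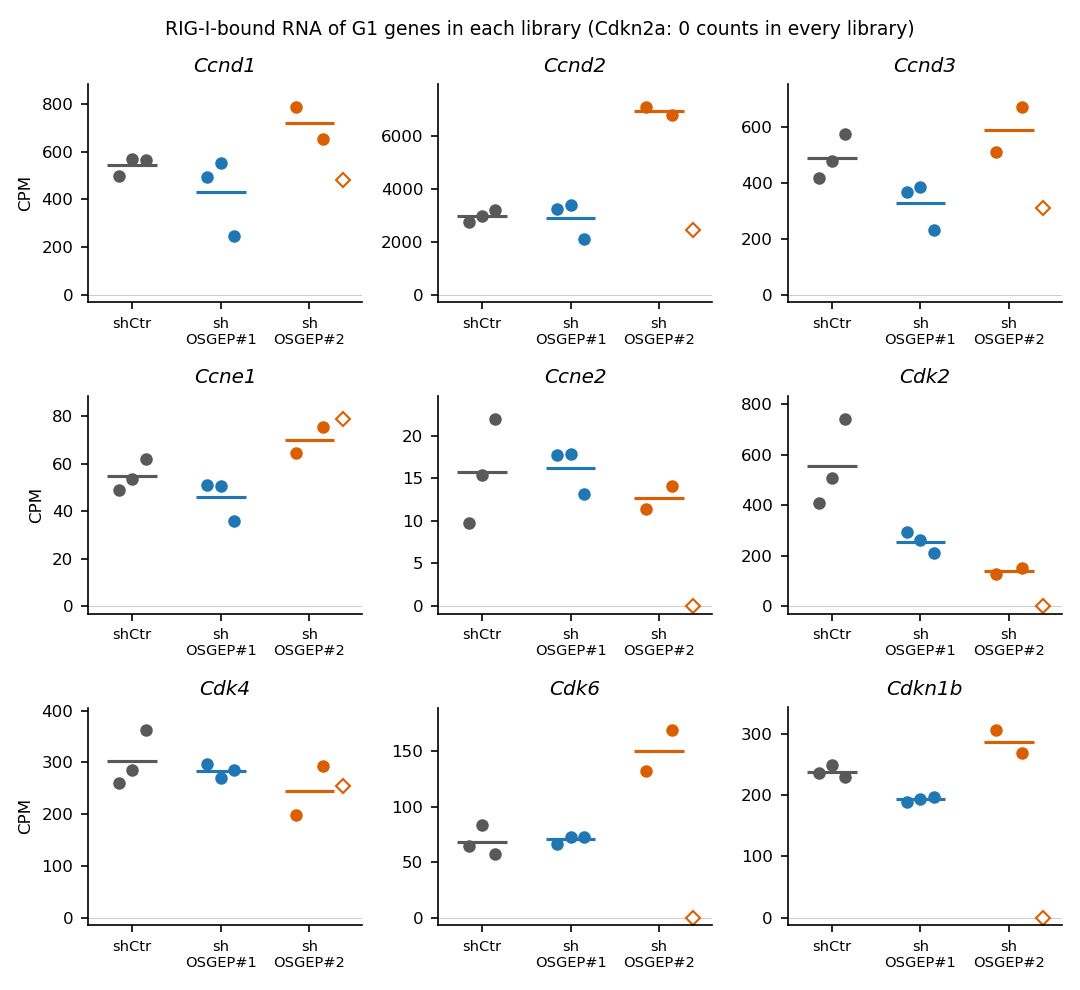
RIG-I-bound RNA of the 9 detected G1 genes in CPM, for each library. Filled points are libraries and bars are group means, open diamonds are the shallow shOSGEP#2 replicate 2, and each panel has its own vertical scale. Ccnd2 and Cdk6 lie above shCtr in both deep shOSGEP#2 libraries, and Cdk2 lies below shCtr in all shOSGEP libraries.

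Across all 12744 genes, edgeR at an adjusted p under 0.01 called 637 genes higher (5.00%) and 595 lower (4.67%) in shOSGEP#1 than in shCtr, 9.67% in either direction. Of the 9 G1 genes tested, 0 were past that threshold on the higher side and 1 (Cdk2) on the lower side. In shOSGEP#2 against shCtr, 721 genes were higher (5.66%) and 496 lower (3.89%), 9.55% in either direction, and with library totals in place of TMM scaling the numbers were 901 and 375. Of the G1 genes, 2 (Ccnd2 and Cdk6) were past the threshold on the higher side and 1 (Cdk2) on the lower side. The median log2 fold change of the 9 G1 genes was -0.27 for shOSGEP#1 and 0.18 for shOSGEP#2, beside 0.0021 and -0.0575 over all genes tested. Without shOSGEP#1 replicate 3 the shOSGEP#1 median of the G1 genes was -0.11. Between the shRNAs, 794 genes were higher (6.23%) and 581 lower (4.56%) in shOSGEP#2, 10.8% in either direction, with 2 G1 genes (Ccnd2 and Cdk6) on the higher side and 0 on the lower. The counts of G1 genes changed with the fit. With the shallow library they were 0 in each comparison. For shOSGEP#1 they were 0 without shOSGEP#1 replicate 2 or 3 or shCtr replicate 2 or 3, with 318 to 763 of all genes called. For shOSGEP#2, 0 were higher without shCtr replicate 1, Cdk6 alone without replicate 2 and Ccnd2 alone without replicate 3. Cdk2 was lower in each of these fits, with 518 to 766 of all genes called. A fit without 1 of the deep shOSGEP#2 libraries left 1 sample in that group. No counts are given for such fits, here or between the shRNAs, and the counts are not shown to hold in them. Between the shRNAs, Ccnd2 alone was higher without shOSGEP#1 replicate 1 or 2, with 821 of 12611 genes called without replicate 2. In that comparison Cdk2 was lower with no filter or without shCtr replicate 3. DESeq2 gave 4 higher and 1 lower between the shRNAs, and called 2592 of 15710 genes. Counted by libraries that do not overlap with shCtr, shOSGEP#1 had 0 G1 genes above and 3 below, where 23.1% and 22.2% of all genes tested did so. For the deep shOSGEP#2 libraries, 5 G1 genes were above and 1 below, where the background was 28.7% and 23.6%. The CPM values behind these counts were in view when the genes were picked, so the counts are no test of them and nothing is read from them.

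The D-type cyclins form the sensor of growth signals, and each binds CDK4 or CDK6. Ccnd2 had 2729, 2964 and 3183 CPM in shCtr replicates 1 to 3. It had 3216, 3378 and 2113 CPM in the shOSGEP#1 libraries. In shOSGEP#2 it reached 7094 CPM in replicate 1 and 6787 CPM in replicate 3. The shOSGEP#1 libraries thus lay on both sides of shCtr, while both deep shOSGEP#2 libraries lay above every other library. The difference from shCtr, as log2 fold change, was 1.14 ± 0.20 (SE) for shOSGEP#2, a fold of 2.2. For shOSGEP#1 it was -0.04 ± 0.18, and turned to 0.14 without shOSGEP#1 replicate 3 and to 0.019 without shCtr replicate 3. The direct difference between the shRNAs was 1.18 ± 0.20. With single libraries left out, the shOSGEP#2 value of Ccnd2 ran from 1.07 to 1.20. With the shallow library in the fit it was 0.72 ± 0.50.

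Ccnd1, the D-type cyclin most often amplified in tumours, had 499, 569 and 567 CPM in shCtr. It had 493.5, 553 and 248 CPM in shOSGEP#1, and 789 and 654 CPM in shOSGEP#2 replicates 1 and 3. Both deep shOSGEP#2 libraries were above shCtr, and shOSGEP#1 replicate 3 was far below its group. Against shCtr, the log2 fold change of Ccnd1 was -0.35 ± 0.25 for shOSGEP#1, and -0.07 without replicate 3. For shOSGEP#2 it was 0.31 ± 0.28, from 0.13 without shOSGEP#2 replicate 1 to 0.47 without replicate 3, and 0.023 with the shallow library in the fit.

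Ccnd3, the D-type cyclin best known from blood cells, had 419, 479 and 574 CPM in shCtr. It had 368, 385 and 233 CPM in shOSGEP#1, and 509 and 672 CPM in the deep shOSGEP#2 libraries. All 3 shOSGEP#1 libraries were below shCtr, while shOSGEP#2 overlapped with it. For Ccnd3 the log2 fold change was -0.59 ± 0.21 for shOSGEP#1, or -0.40 without replicate 3. For shOSGEP#2 it was 0.17 ± 0.23, and turned to -0.013 without shOSGEP#2 replicate 3 and to -0.17 with the shallow library in the fit. Between the shRNAs it was 0.76 ± 0.23.

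Taken per kilobase and summed, the D-type cyclin transcripts came to 845 ± 81.6 CPM per kb in shCtr (SD, n = 3), 729 ± 191 in shOSGEP#1 and 1569 ± 5.29 in shOSGEP#2 (n = 2). Without shOSGEP#1 replicate 3, which had 510.4, the shOSGEP#1 mean was 839 ± 35.2 (n = 2). Their make-up differed as well. Ccnd2 made 55.4 ± 1.11% of that sum in shCtr, 63.2 ± 1.92% in shOSGEP#1 and 69.9 ± 1.95% in shOSGEP#2. The share of Ccnd3 was 27.4 ± 1.75%, 21.4 ± 0.258% and 17.8 ± 3.54% in the same order. That of Ccnd1 was 17.3 ± 0.824%, 15.4 ± 2.16% and 12.3 ± 1.59%. Without shOSGEP#1 replicate 3 the shOSGEP#1 shares were 62.1% for Ccnd2, 21.2% for Ccnd3 and 16.7% for Ccnd1. Ccnd2 was the leading D-type cyclin in each of the 9 libraries, including the shallow one at 58.3%. The sum in the shallow library was 659 CPM per kb, below every shCtr library.

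**Figure D2:**
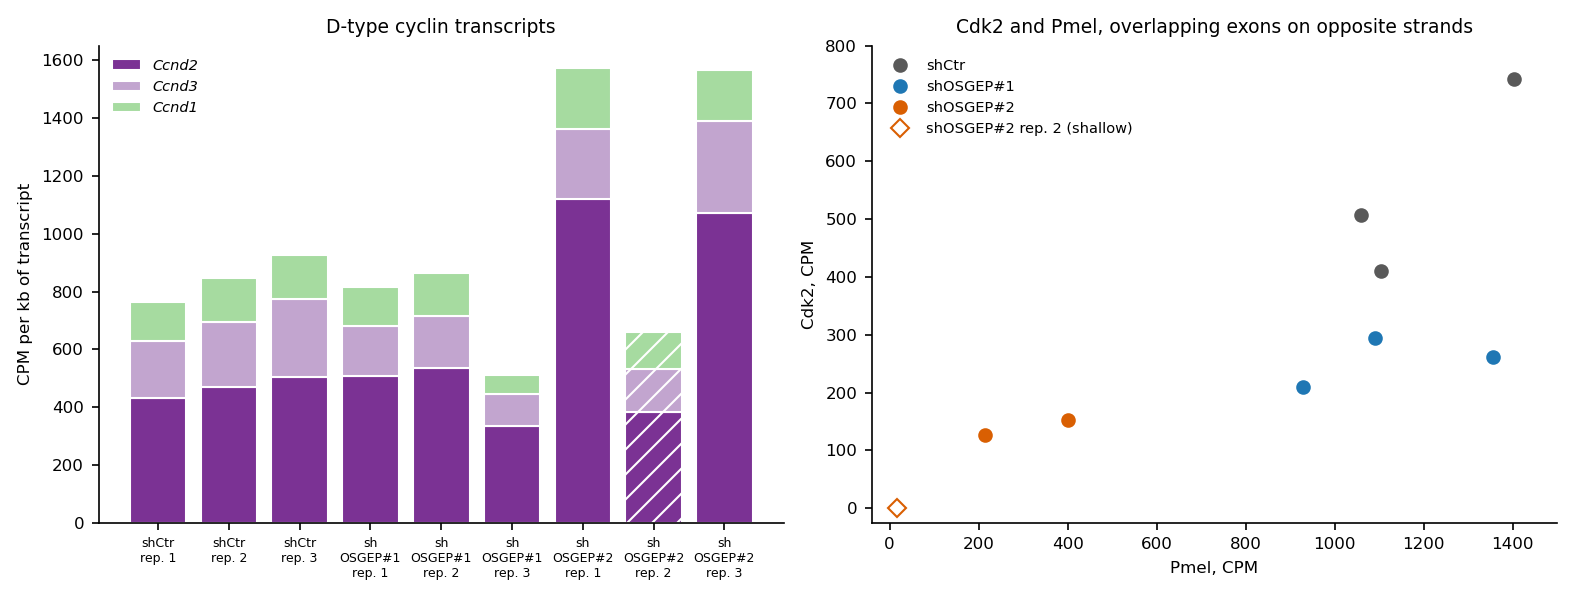
Left, D-type cyclin transcripts in CPM per kb, stacked by gene for each library, with the shallow shOSGEP#2 replicate 2 hatched. Right, Cdk2 against Pmel in CPM, a point per library, with shOSGEP#1 below shCtr in Cdk2 and overlapping with it in Pmel, and both deep shOSGEP#2 libraries lower in both genes.

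The E-type cyclins bind CDK2 late in G1. Ccne1 had 48.8, 53.5 and 61.8 CPM in shCtr and 51.0, 50.8 and 35.8 CPM in shOSGEP#1. It had 64.7 and 75.4 CPM in the deep shOSGEP#2 libraries, both above shCtr. As log2 fold change, Ccne1 differed from shCtr by -0.27 ± 0.18 for shOSGEP#1, or -0.12 without replicate 3, and by 0.26 ± 0.20 for shOSGEP#2, or 0.14 with the shallow library in the fit. Ccne2, the second E-type cyclin, was scarce, with 9.79, 15.4 and 22.0 CPM in shCtr and 13.2 to 17.8 CPM in shOSGEP#1. It had 11.4 and 14.1 CPM in the deep shOSGEP#2 libraries, and the 3 groups overlapped. Its log2 fold changes were 0.03 ± 0.28 and -0.41 ± 0.32 for shOSGEP#1 and shOSGEP#2, and 0.16 for shOSGEP#1 without replicate 3. The shOSGEP#1 value of Ccne2 ran from -0.23 (without shCtr replicate 1) to 0.35 (without shCtr replicate 3) with single libraries left out. Its shOSGEP#2 value ran from -0.86 with all 9 libraries to -0.083 without shCtr replicate 3.

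Cdk2, the partner kinase of cyclin E, had 410.0, 506 and 743 CPM in shCtr. It had 295, 262 and 209 CPM in shOSGEP#1, and 127 and 153 CPM in the deep shOSGEP#2 libraries. The groups did not overlap, with shCtr highest, shOSGEP#1 between and shOSGEP#2 lowest, and shCtr replicate 3 was high within its group. As log2 fold change, Cdk2 stood at -1.13 ± 0.22 for shOSGEP#1, a fold of 0.457, and -2.08 ± 0.27 for shOSGEP#2, a fold of 0.236. With single libraries left out, the shOSGEP#1 value of Cdk2 ran from -1.31 to -0.85, with -1.01 without shOSGEP#1 replicate 3, and the shOSGEP#2 value from -2.25 to -1.80. With the shallow library in the fit the shOSGEP#2 value was -2.64 ± 1.17. Between the shRNAs the log2 fold change was -0.95 ± 0.25.

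The Cdk2 gene lies on chromosome 10, and its annotated exons overlap on the opposite strand with those of Pmel, a pigment granule protein of melanocytes. Pmel had 1105, 1060 and 1404 CPM in shCtr and 1092, 1357 and 929 CPM in shOSGEP#1. It had 213 and 401 CPM in the deep shOSGEP#2 libraries. Pmel was thus lower in shOSGEP#2, with a log2 fold change of -2.06 and an edgeR adjusted p of 0.000592, lower in 2 of 2 deep libraries, and short of the threshold with the shallow library in the fit (-2.60). It differed by -0.09 in shOSGEP#1, from -0.25 without shOSGEP#1 replicate 2 to 0.049 without shCtr replicate 3, with 0.028 without shOSGEP#1 replicate 3. The ratio of Cdk2 to Pmel in CPM was 0.371, 0.478 and 0.529 in shCtr. It was 0.270, 0.193 and 0.225 in shOSGEP#1, and 0.595 and 0.381 in shOSGEP#2. The methods name a stranded library kit but not the strand setting of the quantification, and the part of Pmel reads in the Cdk2 counts was not tested. Exons of 6 more G1 genes overlap with a gene on the opposite strand: Ccnd1 with LTO1, Ccnd2 with Gm43126 and 9330179D12Rik, Ccnd3 with Bysl, Ccne2 with Ints8, Cdk4 with Tspan31, and Cdk6 with Gm17590.

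Cdk6, a partner of the D-type cyclins, had 64.1, 83.4 and 57.3 CPM in shCtr and 66.7, 72.9 and 72.4 CPM in shOSGEP#1. It had 132 and 169 CPM in the deep shOSGEP#2 libraries. Both shOSGEP#2 values were above all other libraries, and shOSGEP#1 fell within the range of shCtr. Cdk6 had a log2 fold change of 1.04 ± 0.18 for shOSGEP#2, a fold of 2.06, and 1.00 ± 0.18 between the shRNAs. For shOSGEP#1 it was 0.04 ± 0.17, or 0.019 without its replicate 3, and turned to -0.012 without shCtr replicate 1 and to -0.07 without shCtr replicate 3. With single libraries left out, the shOSGEP#2 value of Cdk6 ran from 0.89 to 1.21, and that between the shRNAs from 0.85 to 1.14. With the shallow library, which had 0 Cdk6 counts, the shOSGEP#2 value was 0.48 ± 1.16.

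Cdk4, the other kinase of the D-type cyclins, had 261, 285 and 362.5 CPM in shCtr and 297, 269.7 and 284 CPM in shOSGEP#1. It had 197 and 293 CPM in the deep shOSGEP#2 libraries, so all groups overlapped. Its log2 fold change was -0.11 ± 0.18 for shOSGEP#1, also -0.11 without its replicate 3 and 0.047 without shCtr replicate 3, and -0.41 ± 0.20 for shOSGEP#2. The shOSGEP#2 value ran from -0.18 without its replicate 1 to -0.68 without its replicate 3, and was -0.56 with the shallow library in the fit. The ratio of Cdk4 to Cdk6 per kb was 25.8 ± 8.56 in shCtr (SD, n = 3), 22.6 ± 2.16 in shOSGEP#1 and 9.06 ± 0.938 in shOSGEP#2 (n = 2). Without shOSGEP#1 replicate 3 the shOSGEP#1 ratio was 22.9 ± 2.97. The shallow library had 145 counts of Cdk4 and 0 of Cdk6, so it gives no ratio. Cdk4 had the higher level per kb in each group.

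Cdkn1b, whose p27 protein restrains cyclin E with CDK2, had 236, 249.5 and 229 CPM in shCtr. It had 188, 194 and 197 CPM in shOSGEP#1 and 306 and 268 CPM in the deep shOSGEP#2 libraries. The shRNAs lay on opposite sides of shCtr with no overlap. For Cdkn1b the log2 fold change was -0.31 ± 0.13 for shOSGEP#1, or -0.33 without replicate 3. It was 0.18 ± 0.15 for shOSGEP#2, or -0.39 with the shallow library in the fit, and reached 0.30 among the other alternatives. Between the shRNAs it was 0.49 ± 0.15, and -0.06 with the shallow library in the fit. The ratio of summed D-type cyclins to Cdkn1b, both per kb, was 16.2 ± 1.97 in shCtr, 17.2 ± 4.72 in shOSGEP#1 and 25.0 ± 2.25 in shOSGEP#2. Without shOSGEP#1 replicate 3 the shOSGEP#1 ratio was 19.9 ± 0.411 (n = 2).

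Cdkn2a, the locus of INK4a and ARF, had 0 counts in all 9 libraries, which in the deepest library allows up to 0.0597 CPM. Along chromosome 4 the annotated order is Klhl9, Mtap, Cdkn2a, Cdkn2b, Dmrta1. Cdkn2b, a further INK4 inhibitor, had 0 counts in the 8 deep libraries and 13 in shOSGEP#2 replicate 2. Dmrta1 had a single count, in shCtr replicate 2. On the other side, Mtap, which salvages methionine, was well detected at 164, 157 and 217 CPM in shCtr, and so was Klhl9 at 134, 171 and 190.4 CPM. Mtap was higher in shOSGEP#1, at 322, 346 and 281 CPM, with a log2 fold change of 0.80 ± 0.17 and an edgeR adjusted p of 0.00720, above shCtr in 3 of 3 libraries. That call was lost without shCtr replicate 1 (0.74), shCtr replicate 2 (0.71), shOSGEP#1 replicate 1 (0.79) or shOSGEP#1 replicate 2 (0.73). In shOSGEP#2 Mtap differed from shCtr by -0.20.

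In the shallow shOSGEP#2 replicate 2 only 5 of the 10 G1 genes had counts. Ccnd2 had 1383 counts, or 2431 CPM (95% Wilson interval 2306 to 2562), where the mean of the other shOSGEP#2 libraries would give 3949 counts. Ccnd1 had 274 counts, or 482 CPM (428 to 542), and Ccnd3 had 176 counts, or 309 CPM (267 to 359). These levels of D-type cyclins were all below those of the deep shOSGEP#2 libraries and of every shCtr library. The interval of Ccnd1 included the lowest shCtr value. Ccne1 had 45 counts, or 79.1 CPM (59.1 to 106), and Cdk4 had 145 counts, or 255 CPM (217 to 299.8). Cdk2, Cdk6, Cdkn1b, Ccne2 and Cdkn2a had none, where the group mean would give 79.6 counts for Cdk2, 85.6 for Cdk6, 163 for Cdkn1b and 7.24 for Ccne2. A count of 0 there has an upper Wilson limit of 6.75 CPM, wider than the 5.27 CPM that 3 counts allow.

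The partners of these genes in the pathway were counted in lists of 53 genes, of which 52 were tested. Against shCtr, 2 were higher and 6 lower in shOSGEP#1, or 15.4% of them beside 9.67% of all genes, with a median log2 fold change of -0.18. Without shOSGEP#1 replicate 3 the median was -0.05, with 0 higher and 4 lower, or 7.69% of them, where 724 of 12662 genes were called. In shOSGEP#2, 2 were higher and 2 lower, or 7.69% beside 9.55% of all genes, with a median of -0.28. In shOSGEP#2 there were 2 higher and 4 lower without shOSGEP#1 replicate 3, with 1471 of all genes past the threshold against 1217 with it. A gene that missed the threshold is not shown to be unchanged. The lists are described by the number of genes past the edgeR threshold. The call of each gene named here as changed was lost with the shallow library in the fit.

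Among the other CDK inhibitors (4 of 5 tested), 0 were higher and 1 lower in shOSGEP#1, and none passed in shOSGEP#2. The lower gene was Cdkn2c, an INK4 inhibitor of CDK4 and CDK6, with a log2 fold change of -1.05 ± 0.20 and an edgeR adjusted p of 0.00477, below shCtr in 3 of 3 libraries. Its call was lost without shCtr replicate 2 (-1.06), shCtr replicate 3 (-0.92), shOSGEP#1 replicate 2 (-1.13) or shOSGEP#1 replicate 3 (-0.91). In shOSGEP#2 Cdkn2c differed by 0.52 ± 0.22. The most abundant inhibitor of this list was Cdkn1a, a p53 target, at 934, 973 and 1002 CPM in shCtr, with log2 fold changes of 0.13 and -0.23 for shOSGEP#1 and shOSGEP#2.

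Of the 3 pocket proteins, which hold E2F factors in check, 1 was lower in shOSGEP#1 and none passed in shOSGEP#2. Rb1, the substrate of the D-type cyclin kinases, had a log2 fold change of -0.73 ± 0.14 in shOSGEP#1, with an edgeR adjusted p of 0.00559 and 3 of 3 libraries below shCtr. Its call was lost when any library of shCtr or shOSGEP#1 was left out, with values from -0.82 to -0.66. In shOSGEP#2 Rb1 differed by 0.37 ± 0.16. Rbl2 was the most abundant pocket protein in shCtr, with differences of 0.14 and -0.79 ± 0.18 for shOSGEP#1 and shOSGEP#2, and an edgeR adjusted p of 0.0110 for the latter. Rbl2 in shOSGEP#2 passed the threshold with DESeq2 (-0.77), with no filter (-0.79), with only the 2 groups (-0.77), and without shOSGEP#1 replicate 3 (-0.79).

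The E2F and DP factors are the transcription factors freed in late G1. Of 10, 1 was higher and 3 lower in shOSGEP#1, and 1 was higher and 1 lower in shOSGEP#2. E2f5, a repressor E2F, was lower with both shRNAs, by -1.91 ± 0.25 (edgeR adjusted p 0.000717, 3 of 3 libraries) and -1.76 ± 0.29 (0.00191, 2 of 2 libraries) for shOSGEP#1 and shOSGEP#2. In shOSGEP#2 that call was lost without shCtr replicate 1 (-1.76) or shOSGEP#2 replicate 3 (-1.71). Tfdp2, a DP partner of E2F, was higher with both, by 0.76 ± 0.17 (edgeR adjusted p 0.00904) and 0.95 ± 0.19 (0.00480), in every deep library. The shOSGEP#1 call of Tfdp2 was lost without shCtr replicate 1 or 2 or any shOSGEP#1 library (0.66 to 0.84). Its shOSGEP#2 call was lost with only the 2 groups compared (0.97), without shCtr replicate 1 (0.86) or replicate 2 (0.90), or either deep shOSGEP#2 library (0.86 and 1.04). E2f6, a repressor, was lower in shOSGEP#1 at -1.12 ± 0.16 (edgeR adjusted p 0.00111, 3 of 3 libraries), a call lost without shCtr replicate 2 (-1.05), and differed by -0.32 in shOSGEP#2. E2f2, an activator, was lower in shOSGEP#1 at -1.57 ± 0.32 (edgeR adjusted p 0.00590, 3 of 3 libraries). That E2f2 call was lost without any 1 of the shCtr libraries (-1.65, -1.58 and -1.50) or without shOSGEP#1 replicate 2 (-1.72). In shOSGEP#2 E2f2 stood at -1.23 ± 0.36 (edgeR adjusted p 0.0338), and passed with DESeq2 (-1.21), no filter (-1.23), only the 2 groups compared (-1.21) or without shOSGEP#1 replicate 3 (-1.23). Tfdp1, the most abundant of these factors in shCtr, differed by 0.52 and -0.0040 for shOSGEP#1 and shOSGEP#2.

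Of 7 genes for the turnover of G1 cyclins and p27, 1 was higher with each shRNA and 0 were lower. It was Fbxw7, the ubiquitin ligase subunit that marks cyclin E for degradation. Fbxw7 had 22.3, 17.7 and 20.6 CPM in shCtr, 36.7, 33.3 and 45.6 CPM in shOSGEP#1, and 59.3 and 64.0 CPM in the deep shOSGEP#2 libraries. Every shOSGEP library but the shallow one, which had 0 counts, was above shCtr. Its log2 fold change was 0.92 ± 0.17 for shOSGEP#1 (edgeR adjusted p 0.00394) and 1.51 ± 0.19 for shOSGEP#2 (0.000422). The shOSGEP#1 call of Fbxw7 was lost without any 1 of the shCtr libraries (0.99, 0.83 and 0.94) or without shOSGEP#1 replicate 3 (0.78). Skp1, a core subunit of the same ligase family and the most abundant gene of this list in shCtr, differed by -0.01 and -0.42 for shOSGEP#1 and shOSGEP#2.

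Of 6 transcription regulators of G1 genes, 1 was lower with each shRNA and 0 were higher. In shOSGEP#1 it was Bmi1, a Polycomb repressor of Cdkn2a, at -0.93 ± 0.15 (edgeR adjusted p 0.00207, 3 of 3 libraries), a call lost without shCtr replicate 2 (-0.89) or shOSGEP#1 replicate 2 (-0.90). In shOSGEP#2 it was Tbx2, a T-box repressor of the same locus, at -1.20 ± 0.20 (edgeR adjusted p 0.00182, 2 of 2 libraries). Mitf, the melanocyte factor known to act on Cdk2, had 297, 357 and 784 CPM in shCtr. It had 401, 399.8 and 448 CPM in shOSGEP#1, and 168 and 216 CPM in the deep shOSGEP#2 libraries. Mitf and Cdk2 shared their highest library, shCtr replicate 3. Mitf differed from shCtr by -0.22 for shOSGEP#1, or 0.34 without shCtr replicate 3, and -1.42 ± 0.35 for shOSGEP#2 (edgeR adjusted p 0.0166), which passed with DESeq2 (-1.41), no filter (-1.43) or without shCtr replicate 1 (-1.67).

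None of the 5 genes for CDK activation passed for either shRNA, with Cdc37, a chaperone partner of CDK4 and the most abundant in shCtr, at 0.12 and -0.16. None of the 9 E2F target genes of the G1/S step passed, with medians of -0.42 and -0.55 for shOSGEP#1 and shOSGEP#2 and 8 of 9 below 0 with each. The summed CPM of these targets was 792, 844 and 1233 in shCtr, 935, 898 and 463 in shOSGEP#1, and 752 and 703 in the deep shOSGEP#2 libraries. The shOSGEP#1 sum was thus low in replicate 3 alone, and without it the shOSGEP#1 median was -0.16 with 6 of 9 below 0. Pcna, the sliding clamp of DNA replication and the most abundant of them in shCtr, stood at -0.50 and -0.82. None of the 8 genes of G2 and mitosis passed, with medians of -0.50 and -0.47, and Top2a, the most abundant in shCtr, at -0.18 and 0.03. Their sum in shOSGEP#1 was 865, 842 and 408 CPM against 710.5, 738 and 996 in shCtr, and without shOSGEP#1 replicate 3 their median was -0.21. In the deep shOSGEP#2 libraries the sum was 754 and 713 CPM, within the range of shCtr. At an unadjusted p under 0.05, edgeR called 4450 and 4541 of all genes for shOSGEP#1 and shOSGEP#2.

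**Figure D3:**
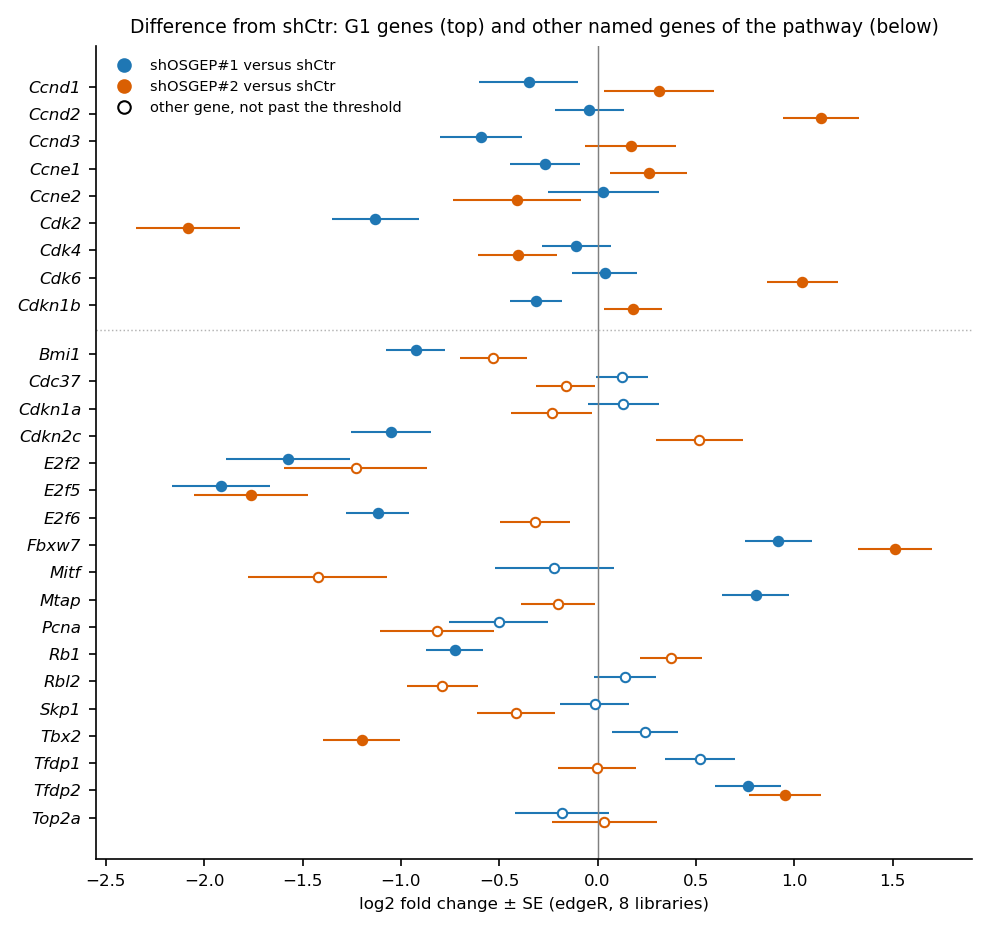
Log2 fold change against shCtr (points) with its SE (lines) from edgeR on 8 libraries, for the G1 genes above the dotted line and other named pathway genes below it. G1 genes are all drawn filled, with no test, and among the other genes filled points passed an adjusted p under 0.01. Cdk2 lies below 0 for both shRNAs, and Ccnd2 and Cdk6 lie above 0 for shOSGEP#2.

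The melanocyte label of the cells was checked against Dct, Tyr, Tyrp1, Pmel, Mlana and Sox10. They summed to 6039, 5682 and 7689 CPM in shCtr, 5887, 7166 and 6392 CPM in shOSGEP#1, 2449 and 3158 CPM in the deep shOSGEP#2 libraries and 1664 CPM in the shallow one, with Tyrp1 the most abundant in shCtr. In shOSGEP#1 1 of 6 (Tyr) was lower, with a median log2 fold change of -0.02. In shOSGEP#2 all 6 were below 0, with a median of -1.70, and 5 passed. Tyrp1 stood at -0.79 with an edgeR adjusted p of 0.0334, and passed with DESeq2 (-0.78). Of 9 markers of other cell types, Krt5 was at 0 throughout, and the list summed to 5.74 to 8.63 CPM in shCtr, 9.15 to 10.0 in shOSGEP#1 and 19.1 and 42.2 in the deep shOSGEP#2 libraries. The shallow library had 68.5 CPM, all from Col1a1, with the other 8 at 0. Of these markers 5 were tested. In shOSGEP#1 0 passed, with a median of 0.31, or -0.73 over the 3 tested without its replicate 3. In shOSGEP#2 1 was higher and 0 lower, with a median of 0.37, 3 above 0 and 2 below, and without shOSGEP#1 replicate 3 the median was 2.06, with 3 tested and all above 0. Pdgfrb, the most abundant of them in shCtr, was at 13.9 and 24.7 CPM in shOSGEP#2 against 4.71, 4.80 and 3.06 in shCtr, with a log2 fold change of 2.10 and an edgeR adjusted p of 0.00167. That call was lost without shOSGEP#2 replicate 3 (1.67), as was that of Mlana (-1.40), the call of Sox10 was lost without shOSGEP#2 replicate 1 (-0.88), and all of these calls were lost with the shallow library in the fit. The part of these differences in those of Ccnd2, Cdk6 and Cdk2 in shOSGEP#2 was not tested.

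The pattern most like that of Ccnd2 over the 8 deep libraries, by Pearson correlation of log2(CPM + 1), belonged to Car7 (0.992), Galnt10 (0.991), Kremen1 (0.99), Sspn (0.99) and Bcam (0.987). For Cdk2, the G1 gene with the next highest CPM in shCtr, it belonged to Pitpnc1 (0.988), Traf4 (0.987), Slc25a13 (0.987), Csrnp2 (0.986) and Mreg (0.985). These values share libraries and groups and are a description.

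The coding sequences were read for ANN codons, those read by tRNAs that carry t6A. The 10 G1 genes had a median share of 25.3%, from 17.2% in Cdkn2a to 32.2% in Ccne2, where the 12590 tested genes with a coding sequence had a median of 27% and quartiles of 23.6% and 29.8%. Ccnd2 had 23.9%, Cdk2 25.2% and Cdk6 25.5%, and the part of codon content in their differences was not tested. Cdk6 and Ccnd2 had the longest annotated transcripts of the 10, at 11.5 and 6.33 kb, against a median of 3.03 kb over the same tested genes.

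RefSeq promoters on GRCm38.p6 (250 bases before to 50 after the start) were found for 7 of the 10 genes, 9 promoters in all, and were missing for Ccnd1, Ccnd2 and Ccne2. They were searched on both strands for the E-boxes CACGTG, which reads alike on both, and CATGTG, and for the E2F-type motifs TTTCGCGC, TTTCCCGC, TTTGGCGC and TTTGCCGC. CACGTG was present in Cdk4, with 4 copies, and in Cdk6, with 1, where 2349 of all 32851 promoters (7.15%) had it and 8 had 4 copies or more. CATGTG was in none of the 9, where 4650 of all promoters (14.2%) had it. An E2F-type motif was present in Cdk2 and in 1 of the 2 promoters of Cdkn2a, where 744 of all promoters (2.26%) had it. A match describes letters and no bound factor. The kinase promoters are shown because Cdk2 and Cdk6 differed in opposite directions in shOSGEP#2, with Cdk4 between them. Capitals mark the E2F-type motif in Cdk2, found on the opposite strand (chr10:128705002-128705301, minus strand), and CACGTG in Cdk4 (chr10:127063285-127063584, plus strand) and Cdk6 (chr5:3343643-3343942, plus strand).
Cdk2: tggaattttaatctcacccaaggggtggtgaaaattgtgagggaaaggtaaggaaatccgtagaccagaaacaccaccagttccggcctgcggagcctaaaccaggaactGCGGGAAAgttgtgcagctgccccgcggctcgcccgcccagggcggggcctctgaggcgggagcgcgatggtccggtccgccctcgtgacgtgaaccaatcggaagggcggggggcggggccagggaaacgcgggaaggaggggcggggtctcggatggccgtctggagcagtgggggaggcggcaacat
Cdk4: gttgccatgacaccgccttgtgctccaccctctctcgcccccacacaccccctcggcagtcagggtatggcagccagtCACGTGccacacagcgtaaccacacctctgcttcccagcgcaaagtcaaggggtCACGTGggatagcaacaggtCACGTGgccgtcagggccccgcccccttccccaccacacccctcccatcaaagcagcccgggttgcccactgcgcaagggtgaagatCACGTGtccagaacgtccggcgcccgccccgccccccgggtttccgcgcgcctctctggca
Cdk6: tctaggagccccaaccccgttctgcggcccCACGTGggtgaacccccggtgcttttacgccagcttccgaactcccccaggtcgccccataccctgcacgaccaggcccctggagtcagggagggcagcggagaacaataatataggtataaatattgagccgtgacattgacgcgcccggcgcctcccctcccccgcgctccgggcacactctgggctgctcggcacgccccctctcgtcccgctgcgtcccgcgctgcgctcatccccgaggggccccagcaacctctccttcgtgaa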

How the data were processed

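RIG-I-bound RNA was measured in 9 libraries of B16F10 cells. The authors deposited counts per gene (Salmon after STAR alignment and Trim Galore, GRCm39). Ensembl identifiers were mapped to symbols with GENCODE vM21, from which transcript lengths and codons also came. CPM used library totals, which ran from 568995 to 50224299 counts. The floor for a gene with none was 3 counts, and intervals and floors cover counting error only. edgeR 4.0.16 (limma 3.58.1, R 4.3.3) fitted 8 libraries in 3 groups with TMM, filterByExpr and quasi-likelihood tests, adjusted by Benjamini-Hochberg over 12744 genes, with a threshold of 0.01. SE was computed from the F statistic. The shOSGEP#2 replicate 2 was left out of the fit because of its depth. Where leaving out a library left an arm with 1 sample, that sample was assumed to vary like the other groups. Named were the G1 genes, Osgep and, from lists of the pathway, each gene past the threshold for either shRNA and the gene with the highest CPM in shCtr. Other markers, genes overlapping or next to G1 genes were named after their values were seen. Members and lists were chosen with earlier results of these data known. Alternatives were all 9 libraries, DESeq2 1.42.0, RLE factors, library totals, no filter, at least 10 counts in every library, a threshold of 0.05, only the 2 groups compared, the replicate number as a block and each library left out. Wilson intervals came from scipy 1.17.1, tables from pandas 2.3.3 with numpy 2.4.6, and plots from matplotlib 3.10.9, all under Python 3.11.15.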

Additional observations from a re-analysis of the deposited data

Results flagged for a closer look

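The shRNAs differed from each other in several genes, by the edgeR comparison of shOSGEP#2 with shOSGEP#1 on 8 libraries. For Cdkn1b every library of shOSGEP#1 was below and both deep libraries of shOSGEP#2 were above shCtr, with a log2 fold change between the shRNAs of 0.49, which is a description. The same opposite sides were seen for Cdkn2c, with 1.57 (edgeR adjusted p 0.000724), and for Rb1, with 1.10 (0.000797). For Tbx2 they were seen the other way round, with -1.44 (0.000640). The direct comparison also passed for Rbl2 at -0.93 (0.00446), for Mtap at -1.01 (0.00406) and for E2f6 at 0.80 (0.00794). In the same list as E2f6, E2f4, named after its values were seen, was at -1.30 (0.00317), a call lost with only the 2 groups compared (-1.28) and without shOSGEP#2 replicate 1 (-0.97). The Rbl2 call was lost with only the 2 groups compared (-0.92) and without shCtr replicate 1 (-0.92), shCtr replicate 2 (-0.93), shOSGEP#2 replicate 1 (-0.92) or shOSGEP#2 replicate 3 (-0.93). The Mtap call was lost without shOSGEP#1 replicate 1 (-0.99), shOSGEP#1 replicate 2 (-0.93) or shOSGEP#2 replicate 3 (-0.88). The E2f6 call between the shRNAs was lost in 7 of the 8 fits that left out 1 library, all but that without shCtr replicate 3, with values from 0.75 to 0.89, and with only the 2 groups compared (0.82). Cdkn2b had 13 counts in shOSGEP#2 replicate 2, the library outside the fit, and 0 in the other 8.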

How the results depend on the processing

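Under the alternatives, values of the G1 genes moved by less than the spread between replicates in 412 cases and by more in 20. For the other genes named by rule, 781 values kept direction and side of the threshold, 76 lost it, 25 gained it and 27 turned. These are Osgep and the genes named from lists as past the threshold or highest in CPM. Genes named after their values were seen, such as E2f4, and the cell type markers, Pmel among them, are not counted here. With all 9 libraries edgeR called 0 genes in each comparison (unadjusted p under 0.05: 620 for shOSGEP#1 and 1240 for shOSGEP#2 against shCtr, 1325 between the shRNAs). DESeq2 called 2419, 2405 and 2592 on 8 libraries, and a threshold of 0.05 gave 2797, 2674 and 2952. With only the 2 groups compared, 737 genes were called between the shRNAs. The replicate block gave 1380, 1238 and 1393, and ended the shOSGEP#1 calls of Mtap (0.81) and Tfdp2 (0.77), the shOSGEP#2 call of Tfdp2 (0.95) and the E2f6 call between the shRNAs (0.83). It brought Mitf (-1.42) and Rbl2 (-0.84) in shOSGEP#2 past the threshold. Leaving out 1 library gave 318 to 1458, 518 to 1471 and 743 to 1504. Values that turned with all 9 libraries were, for shOSGEP#2 against shCtr, E2f6 (0.82), Rb1 (-0.18) and Top2a (-0.36), and between the shRNAs Bmi1 (-0.15), E2f2 (-0.12), E2f5 (-0.21), Tfdp2 (-0.35) and Top2a (-0.18). Tfdp1 in shOSGEP#2, close to 0, turned with DESeq2 (0.014), RLE (0.013), library totals (0.091), at least 10 counts (0.011), only the 2 groups (0.016) and the block (0.025), and ran from -0.068 to 0.11 with 1 library left out. Ranges with 1 library left out that crossed 0 included, for shOSGEP#1, Cdkn1a (-0.11 to 0.27), Mitf (-0.48 to 0.34), Pmel (-0.25 to 0.049), Rbl2 (-0.034 to 0.23), Skp1 (-0.13 to 0.11) and Top2a (-0.37 to 0.084). For shOSGEP#2 they included Top2a (-0.064 to 0.14), and between the shRNAs Osgep (-4.75 to 0.32), E2f5 (-0.0038 to 0.34) and Top2a (-0.048 to 0.40). Osgep had no value under the filter of at least 10 counts. The cause was not tested. The floor of the shallow library does not describe all that it lacks: 623 of 2385 genes at 100 CPM or more in both other shOSGEP#2 libraries had no count in it.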
